A study of Mus musculus with 10 samples.

Results

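The genes described here make, recycle, use and break down glutathione in mouse brain. They were the 35 listed symbols of cystine uptake and glutathione synthesis, glutathione reduction, glutathione peroxidases, glutathione transferases and glutathione breakdown. The rule named them by symbol and function, but the list was drawn up with earlier results of these data known. A gene counted as measured when the platform annotation assigned a probe set to that symbol alone, and its brightest probe set was used. That gave 34 of the 35 genes, out of 19938 genes with a value in all; Ggt1 was not analysed here.

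RNA came from the whole brains of 5 transgenic (Tg) mice that overexpressed Glo1 from a bacterial artificial chromosome and from 5 wild-type (WT) littermates. All 10 mice were untreated, group-housed adult males on a C57Bl/6J background. As described, the groups differed in the transgene and shared strain, sex, age class and housing. Whether they also differed elsewhere in the genome was not tested here. The arrays are single-channel Affymetrix arrays with 1 mouse on each, and the titles number the mice as biological replicates. The sources used here do not give the promoter, copy number or founder line of the transgene, nor the exact age.

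Glutathione is a tripeptide that carries a reactive thiol and is the main small antioxidant of cells. Glutamate-cysteine ligase, with its catalytic subunit Gclc and modifier subunit Gclm, makes the first bond, and glutathione synthetase (Gss) adds glycine. Peroxidases and transferases then spend the thiol on peroxides and electrophiles, glutathione reductase (Gsr) restores the oxidised form, and γ-glutamyl enzymes take the tripeptide apart. Glyoxalase 1, the product of Glo1, needs glutathione as well: methylglyoxal, a by-product of glycolysis, first adds to glutathione, Glo1 rearranges the adduct, and glyoxalase 2 (Hagh) frees the glutathione again. In brain, astrocytes are known as the main source of glutathione and feed its precursors to neurons.

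The comparison asked whether more of an enzyme that uses glutathione as cofactor went with other levels of the glutathione genes. Glo1 stood at 10.57 ± 0.19 log2 units in WT (SD, n = 5) and at 12.08 ± 0.13 in Tg (SD, n = 5), a difference of 1.51 (95% interval 1.31 to 1.71, limma adjusted p = 3.50e-05). Of the 34 glutathione genes, 0 passed an adjusted p of 0.05 in limma, where 10 of all 28944 probe sets, 0.0345%, did. At an unadjusted p under 0.05 limma also gave 0 of 34, against 2.21% of all probe sets. In 0 of 34 genes did the Tg and WT values fail to overlap, against 0.460% of all probe sets. With backgrounds this low, a count of 0 among 34 genes does not set the glutathione genes apart from others.

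What the data do give is a bound on each gene. The 34 mean differences ran from -0.14 to 0.12 log2 units (Tg minus WT), with 17 above 0 and 17 below, and 29 of them were smaller than 0.1 in either direction. Their median was 0.00089, and the median over all probe sets was -0.0031. Every one of the 34 intervals spanned 0. The lowest interval bound of any gene was -0.37, a Tg level at 77.3% of WT, and the highest was 0.32, a Tg level at 125% of WT. These ends moved with single arrays, to -0.42 without WT replicate 4 and to 0.38 without WT replicate 5. The median standard error was 0.060 log2 units for these genes and 0.063 for all probe sets. The limma adjusted p of each of the 34 genes rounded to 1.0.

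**Figure D1:**
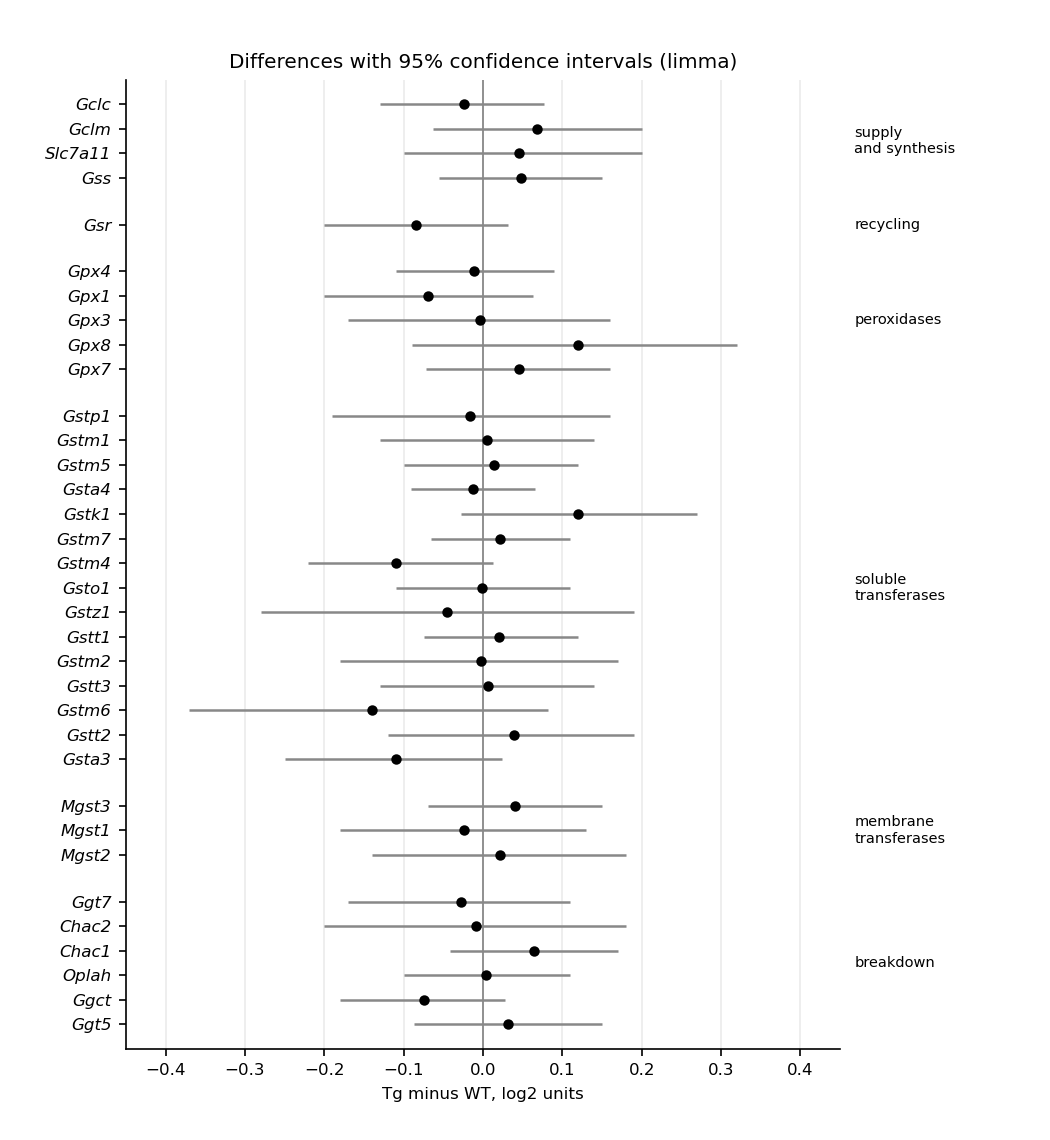
Tg minus WT difference in log2 units (x axis) for each of the 34 measured glutathione genes (y axis), grouped by class, 5 Tg against 5 WT arrays. Points are limma estimates and bars their 95% confidence intervals. All 34 bars cross 0, from a lowest bound of -0.37 for Gstm6 to a highest of 0.32 for Gpx8.

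Some arrays stood apart from the rest. Array medians lay between 7.95 and 8.05, and the neuronal marker list (9 of 9 measured) averaged 12.28 to 12.33 on all 10 arrays, as for brain tissue. WT replicate 2 was low in the cerebellar list (10 of 10 measured), at 8.08 against 10.57 to 10.68 on the other WT arrays and 10.38 to 10.50 in Tg. It was also low in the astrocyte list (10 of 10; 10.73 against 10.83 to 10.86 in the other WT) and in the choroid plexus list (9 of 10; 8.99 against 9.20 to 9.23), and high in the microglial list (9 of 10; 8.91 against 8.71 to 8.81). Pituitary markers (8 of 9 measured) read 9.54 there and 9.20 in Tg replicate 2, against at most 7.04 elsewhere. In these bulk samples fewer cells of a type and less RNA per cell cannot be told apart. The striatal list (8 of 10 measured) was highest in WT replicate 2, at 10.75, and lay at 10.54 to 10.56 on the other WT arrays and at 10.46 to 10.53 in Tg. Every Tg array was thus below every WT array in the striatal list, and below the other 4 WT arrays in the cerebellar list. In limma 0 genes of the striatal list and 0 of the cerebellar list passed an adjusted p of 0.05. The part of these differences between the groups in the values of the glutathione genes was not tested. For the 15 genes whose difference changed most without WT replicate 2, the value without it is given.

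Ordered by the median WT signal of their genes, supply and synthesis came first at 10.55 log2 units, then recycling at 9.55, peroxidases at 9.23, soluble transferases at 8.99, breakdown at 8.65 and membrane transferases at 7.97. The class medians fell in this order on each of the 10 arrays. In Tg the medians were 10.57, 9.47, 9.23, 8.99, 8.68 and 7.95. The order is one of probe set signals, which depend on the probes as well as on the transcript, so it does not rank numbers of molecules. The classes also overlapped widely: soluble transferases alone ran from 7.01 for Gsta3 to 11.81 for Gstp1 in WT, and recycling rests on Gsr alone. For comparison, the median over all probe sets was 7.97 in WT, and 26 of the 34 genes were brighter than the middle probe set. The 34 are named genes at their brightest probe set, while all probe sets include unnamed ones. That choice alone may raise the count, and the share over named genes was not computed.

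**Figure D2:**
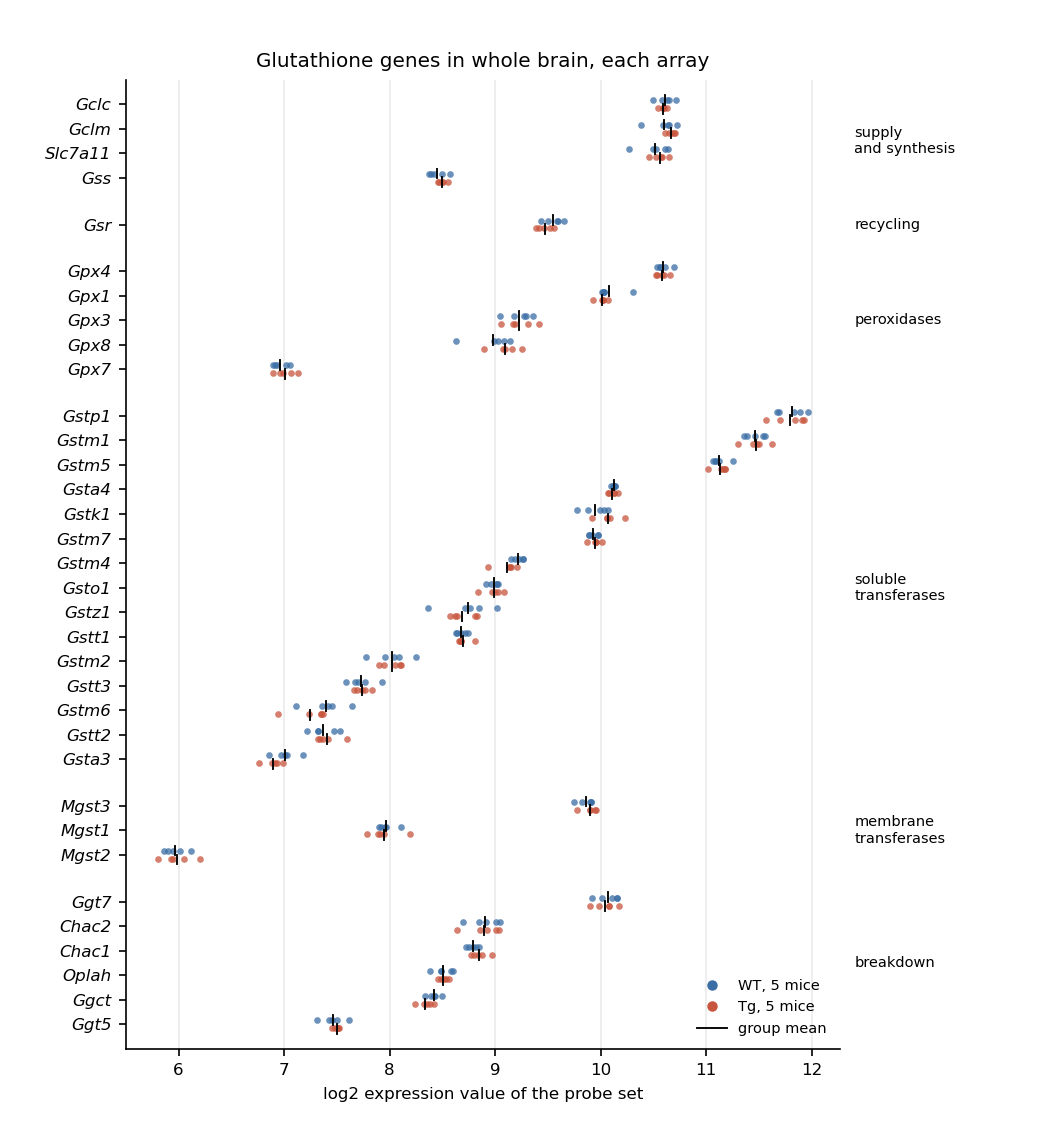
Log2 expression value of the probe set (x axis) on each of the 5 WT (blue) and 5 Tg (red) arrays for the 34 measured genes (y axis), grouped by class and ordered by WT mean within the class; black ticks are group means. The WT means span 5.97 for Mgst2 to 11.81 for Gstp1, and Tg and WT points overlap for every gene.

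The promoter stretches printed here hold letter matches to motifs of known control elements. The stretches are from the pair of genes with the rarer motif and from a synthesis and a transferase gene with the commoner one. They come from RefSeq's mouse assembly GRCm38.p6, of which entries for 28 of the 34 genes were matched by symbol, read 5′ to 3′ on the gene's strand, with motif matches on either strand in capitals.
Slc7a11 (chr3:50443614-50443719, minus strand): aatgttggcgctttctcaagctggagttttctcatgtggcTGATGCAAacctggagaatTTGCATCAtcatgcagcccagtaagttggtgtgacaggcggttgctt
Chac1 (chr2:119351009-119351096, plus strand): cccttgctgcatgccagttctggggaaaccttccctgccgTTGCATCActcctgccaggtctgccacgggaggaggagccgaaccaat
Gclm (chr3:122245383-122245471, plus strand): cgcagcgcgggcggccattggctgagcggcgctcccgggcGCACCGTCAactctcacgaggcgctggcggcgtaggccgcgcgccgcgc
Gsta3 (chr1:21240424-21240512, plus strand): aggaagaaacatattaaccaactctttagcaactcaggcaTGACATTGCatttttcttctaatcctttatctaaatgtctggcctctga
The motif TGATGCAA, the core of the amino acid response element bound by ATF4, was found in the RefSeq promoter window around the start of Slc7a11, on both strands, and in Chac1, and in no other of the 28 genes. Both motifs were searched on both strands. Of the 39 windows of the 28 genes 2 (5.13%) held TGATGCAA, and of all 32851 windows of the same length 0.895% did. These shares were not tested against each other, and the motif was chosen after the values were seen. TGACNNNGC, the core of the antioxidant response element bound by Nrf2, was found in Gclm, Ggct, Gsta3, Gstm5, Gstm7 and Mgst1. Of the 39 windows of the 28 genes 6 (15.4%) held it, near the 12.4% of all windows. None of these genes carried both motifs. A match is a run of letters and not a measured site, and no binding was measured here. The genes that carry the motifs are marked as such with their values.

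The supply and synthesis genes had a median difference of 0.047 log2 units, 3 with a higher and 1 with a lower Tg mean, none past the threshold. Slc7a11, the cystine transporter that brings in the limiting precursor and 1 of the pair with TGATGCAA, read 10.52, 10.27, 10.64, 10.61 and 10.50 in WT replicates 1 to 5 and 10.65, 10.46, 10.58, 10.52 and 10.57 in Tg replicates 1 to 5. Its lowest value was that of WT replicate 2, and the other 9 arrays lay between 10.46 and 10.65. Slc7a11 differed by 0.046 (95% interval -0.10 to 0.20), and by -0.013 without WT replicate 2, so that array set its sign.

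Gclm, the modifier subunit of glutamate-cysteine ligase and a carrier of TGACNNNGC, had the highest mean signal over all 10 arrays and the lowest p of the class. It read 10.59, 10.38, 10.65, 10.64 and 10.72 in WT and 10.70, 10.61, 10.68, 10.69 and 10.65 in Tg. Again WT replicate 2 was lowest, and all 5 Tg values lay inside the WT range. The difference of 0.068 (-0.063 to 0.20, limma adjusted p = 1.0) became 0.014 without WT replicate 2. Gclc, the catalytic subunit, was at 10.61 ± 0.082 in WT and 10.59 ± 0.031 in Tg (SD, 5 mice each), a difference of -0.024 that was -0.054 without WT replicate 2. Gss, which completes the tripeptide, was at 8.45 ± 0.082 and 8.50 ± 0.036, a difference of 0.048 (-0.055 to 0.15), and WT replicate 2 held its highest value, 8.57, rather than its lowest, so that Gss differed by 0.076 without it. Without WT replicate 2 the median of the 4 genes was 0.00032 in place of 0.047. The astrocyte, choroid plexus and cerebellar lists were low on that array too, and their part in these values was not tested.

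Gsr, the reductase that returns oxidised glutathione to its reduced form with NADPH, was the 1 recycling gene. It read 9.60, 9.43, 9.59, 9.65 and 9.50 in WT and 9.46, 9.42, 9.52, 9.39 and 9.56 in Tg. In Tg 2 of the 5 values lay below the lowest WT value and the rest lay among the WT values. Gsr differed by -0.085 (-0.20 to 0.031), a Tg level at 94.3% of WT (87.0% to 102%), which did not pass (limma adjusted p = 1.0, two-sided exact permutation p = 0.135). Here WT replicate 2 worked the other way. Without it Gsr differed by -0.12 (-0.22 to -0.0096), with an unadjusted limma p of 0.0352 and an adjusted p of 0.434, so the gene missed the threshold there as well. With single arrays left out the difference stayed between -0.12 and -0.062.

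The peroxidases had a median difference of -0.0034, with 2 Tg means higher and 3 lower. Gpx4, the enzyme that reduces lipid peroxides in membranes, was the brightest of them and read 10.56, 10.69, 10.61, 10.53 and 10.56 in WT and 10.58, 10.53, 10.66, 10.60 and 10.52 in Tg. Tg and WT values were interleaved, and WT replicate 2 was the highest of all. The difference of Gpx4 was -0.011 (-0.11 to 0.089) and turned to 0.014 without that array. Another probe set of Gpx4 gave -0.011 too (-0.11 to 0.087), at 10.59 ± 0.052 in WT and 10.57 ± 0.064 in Tg (SD, 5 mice each). The interval places Gpx4 in Tg at 92.6% to 106% of WT.

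Gpx1, the abundant cytosolic peroxidase, showed what a single array can do. It read 10.02, 10.31, 10.03, 10.01 and 10.03 in WT and 10.02, 10.01, 10.02, 10.07 and 9.93 in Tg. WT replicate 2 stood well above the other 4 WT arrays, which lay between 10.01 and 10.03. The difference of -0.069 (-0.20 to 0.063) became -0.012 without that array. The microglial (8.91), pituitary (9.54) and striatal (10.75) lists were also highest there. So were the 2 measured of 6 blood markers (8.99, against 7.73 to 7.92 in the other WT). Their part in the Gpx1 value was not tested.

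Gpx8, a peroxidase of the endoplasmic reticulum, had the largest mean difference of its class, together with the lowest p. It read 8.99, 8.63, 9.08, 9.03 and 9.14 in WT and 9.07, 8.89, 9.09, 9.25 and 9.16 in Tg. WT replicate 2 was the lowest of all 10 arrays, and Tg replicate 2 was the lowest Tg value. With all arrays Gpx8 differed by 0.12 (-0.089 to 0.32, limma adjusted p = 1.0), and without WT replicate 2 by 0.032. Gpx3, the secreted peroxidase, was at 9.23 ± 0.12 and 9.23 ± 0.14 in WT and Tg, with a difference of -0.0034. Gpx7, a dim relative of Gpx8 in the same compartment, was at 6.96 ± 0.072 and 7.01 ± 0.091 (SD, 5 mice each), and Tg values lay on both sides of WT.

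The 15 soluble transferases, which join glutathione to electrophiles, had a median difference of -0.0016, with 7 Tg means higher and 8 lower. Gstp1, the π-class enzyme known from oligodendrocytes, gave the highest signal of all 34 genes and read 11.69, 11.89, 11.83, 11.67 and 11.96 in WT and 11.84, 11.93, 11.91, 11.70 and 11.57 in Tg. Its spread within each genotype, 0.13 in WT and 0.15 in Tg (SD, 5 mice each), was far wider than its difference of -0.016 (-0.19 to 0.16). Without Tg replicate 5, the lowest of all 10, the difference was 0.040. Signal from its near-identical copy Gstp2 cannot be told apart with certainty on an array, and probe sets assigned to both were left out.

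The μ-class genes Gstm5, Gstm7, Gstm6, Gstm2, Gstm1 and Gstm4 lie side by side on chromosome 3, in that order with Gstm3 among them. Similar sequences make cross-hybridisation possible, so single members are uncertain. Gstm1, known from astrocytes, was at 11.46 ± 0.091 in WT and 11.47 ± 0.11 in Tg (SD, 5 mice each), a difference of 0.0054 (-0.13 to 0.14).

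Gstm4 had the lowest p of all 34 genes. It read 9.26, 9.26, 9.19, 9.23 and 9.15 in WT and 9.15, 9.14, 9.21, 9.13 and 8.93 in Tg. In Tg 4 of 5 values lay below the lowest WT value, while Tg replicate 3 lay inside the WT range. Gstm4 differed by -0.11 (-0.22 to 0.012), a Tg level at 92.9% of WT (85.7% to 101%; limma unadjusted p = 0.0732, adjusted p = 1.0). A two-sided exact permutation test over all assignments of the arrays gave p = 0.0397, the lowest of 34 such tests and not adjusted for them; the smallest that this design allows is 0.00794. Tg replicate 5, at 8.93, stood apart from the other Tg arrays, and without it the difference was -0.061.

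Gstm6 had the largest mean difference and, at 0.70 log2 units, the widest range over the 10 arrays. It read 7.45, 7.64, 7.36, 7.11 and 7.42 in WT and 7.35, 7.24, 7.37, 7.35 and 6.94 in Tg. WT replicate 2 held the highest value and Tg replicate 5 the lowest, and the groups overlapped, with a difference of -0.14 (-0.37 to 0.082). It was -0.083 without WT replicate 2, -0.067 without Tg replicate 5 and -0.22 without WT replicate 4.

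The remaining μ-class genes had smaller differences. Gstm5, known from brain and testis and a carrier of TGACNNNGC, read 11.08, 11.25, 11.12, 11.06 and 11.09 in WT and 11.18, 11.18, 11.16, 11.14 and 11.02 in Tg. WT replicate 2 was the highest array and Tg replicate 5 the lowest. The difference of Gstm5 was 0.014 (-0.10 to 0.12), 0.047 without WT replicate 2 and 0.043 without Tg replicate 5. Gstm2 read 8.04, 7.78, 7.96, 8.25 and 8.09 in WT and 8.11, 8.05, 8.10, 7.90 and 7.95 in Tg. Its WT values spread more widely than the Tg ones, and its difference of -0.0021 went to -0.062 without WT replicate 2 and to 0.055 without WT replicate 4. Gstm7, a carrier of TGACNNNGC, was at 9.93 ± 0.039 and 9.95 ± 0.050 (SD, 5 mice each), a difference of 0.022 (-0.066 to 0.11).

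The α-class genes differed from each other in how firmly they were measured. Gsta4, which conjugates the lipid peroxidation product 4-hydroxynonenal, was the steadiest of the 34 genes: its values spanned 0.083 log2 units over 10 arrays, against a median range of 0.33 over all probe sets. It was at 10.13 ± 0.016 in WT and 10.11 ± 0.037 in Tg (SD, 5 mice each), a difference of -0.012 (-0.091 to 0.066). Gsta3, a dim gene and a carrier of TGACNNNGC, read 6.86, 7.18, 7.01, 6.97 and 7.03 in WT and 6.89, 6.99, 6.76, 6.91 and 6.93 in Tg. 1 Tg value lay below the WT range and the rest within it, with a difference of -0.11 (-0.25 to 0.024) that was -0.070 without WT replicate 2 and did not pass (limma adjusted p = 1.0). Quantile normalization gave Gsta3 a difference of -0.14 at an unadjusted limma p of 0.0220 and an adjusted p of 1.0.

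Gstk1, the κ-class transferase of mitochondria and peroxisomes, had the largest positive difference among transferases. It read 10.03, 9.78, 10.07, 9.99 and 9.88 in WT and 10.06, 10.09, 10.23, 10.06 and 9.92 in Tg. WT replicate 2 was lowest and Tg replicate 3 highest, with the others interleaved. The difference of 0.12 (-0.028 to 0.27), a Tg level at 109% of WT, did not pass (limma adjusted p = 1.0) and was 0.078 without WT replicate 2 and 0.16 without Tg replicate 5. Gstk1 lies on chromosome 6, as do Mgst1 and Ggct, with differences of -0.024 and -0.074. Of the 34 genes 3 lie on that chromosome and 0 on chromosome 17, which holds Glo1.

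The ζ-class gene Gstz1, which works in tyrosine breakdown, had the widest spread among WT mice. It read 8.76, 8.36, 9.02, 8.85 and 8.71 in WT and 8.81, 8.57, 8.83, 8.62 and 8.64 in Tg. All 5 Tg values lay inside the WT range, and the difference of -0.045 (-0.28 to 0.19) went to -0.14 without WT replicate 2 and to 0.026 without WT replicate 3. Gsto1, the ω-class enzyme that acts as a thiol reductase, was at 8.99 ± 0.051 and 8.99 ± 0.091 (SD, 5 mice each), a difference of -0.0016.

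The θ-class genes Gstt3, Gstt1 and Gstt2 lie together on chromosome 10, with Gstt4 among them. Gstt1 read 8.71, 8.68, 8.74, 8.64 and 8.63 in WT and 8.81, 8.67, 8.68, 8.66 and 8.68 in Tg. Tg replicate 1 was high and the other 4 Tg arrays lay between 8.66 and 8.68, and the difference of 0.020 (-0.075 to 0.12) turned to -0.0061 without that mouse. Gstt2 was at 7.37 ± 0.13 and 7.41 ± 0.11, and Gstt3 at 7.73 ± 0.13 and 7.74 ± 0.067, in WT and Tg (SD, 5 mice each). The difference of Gstt2 was 0.039, and -0.0077 without Tg replicate 3. That of Gstt3 was 0.0064, and 0.056 without WT replicate 2, whose 7.93 was the highest of the 10 values.

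The membrane transferases, small integral proteins of the endoplasmic reticulum, had a median difference of 0.021. Mgst3, the brightest of them, read 9.82, 9.91, 9.91, 9.75 and 9.90 in WT and 9.90, 9.95, 9.96, 9.90 and 9.78 in Tg. Tg replicate 5 was the lowest Tg array here also, and the difference was 0.040 (-0.069 to 0.15). Mgst1, a carrier of TGACNNNGC, read 7.96, 7.92, 8.11, 7.97 and 7.90 in WT and 7.89, 7.95, 8.19, 7.91 and 7.79 in Tg. Its highest value was in Tg replicate 3 and its lowest in Tg replicate 5, and the difference of -0.024 was -0.086 without Tg replicate 3 and 0.015 without Tg replicate 5. Mgst2, the dimmest of the 34 genes, read 5.95, 6.12, 6.01, 5.86 and 5.90 in WT and 5.95, 6.20, 5.81, 6.05 and 5.93 in Tg. Its signal lay at percentile 17.6 of all probe sets, and its difference of 0.021 went to -0.032 without Tg replicate 2.

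Across the 18 transferases, Tg replicate 5 was the lowest Tg array for 11 genes (61.1%), while it was the lowest for 19.2% of all probe sets. Tg replicate 3 was the highest for 9 of the 18, against 18.0% of all probe sets. This was noticed after the values were seen, and neighbouring transferases may share probes, so the 18 are not independent. Gstm3, the gene of the cluster that was not listed, read 8.77, 8.72, 8.88, 8.75 and 8.54 in Tg, low in the same mouse. The number of its probe set, 10362511, lies apart from those of the other μ-class genes, so its match to the cluster is uncertain. On Tg replicate 5 the oligodendrocyte list (9 of 10 measured) was at 11.14, the lowest of all arrays, against 11.16 to 11.22 on the other Tg arrays. The olfactory bulb list (8 of 8) was at 8.40 on Tg replicate 5 and 9.08 on Tg replicate 3, its ends in Tg, and the meningeal list (10 of 10) was at 8.60 and 8.76 on the same arrays. The same direction held for the microglial (8.75 and 8.84), neuronal (12.28 and 12.33) and astrocyte (10.82 and 10.86) lists. So it did for the cerebellar (10.47 and 10.50) and blood (7.79 and 7.82) lists. The choroid plexus (9.26 and 9.11), striatal (10.53 and 10.46) and pituitary (6.98 and 6.87) lists ran the other way on these arrays. The vascular list was at 9.25 on both. Their part in the transferase values was not tested. Without Tg replicate 5 the median difference of the 18 transferases was 0.030 in place of 0.0019.

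**Figure D3:**
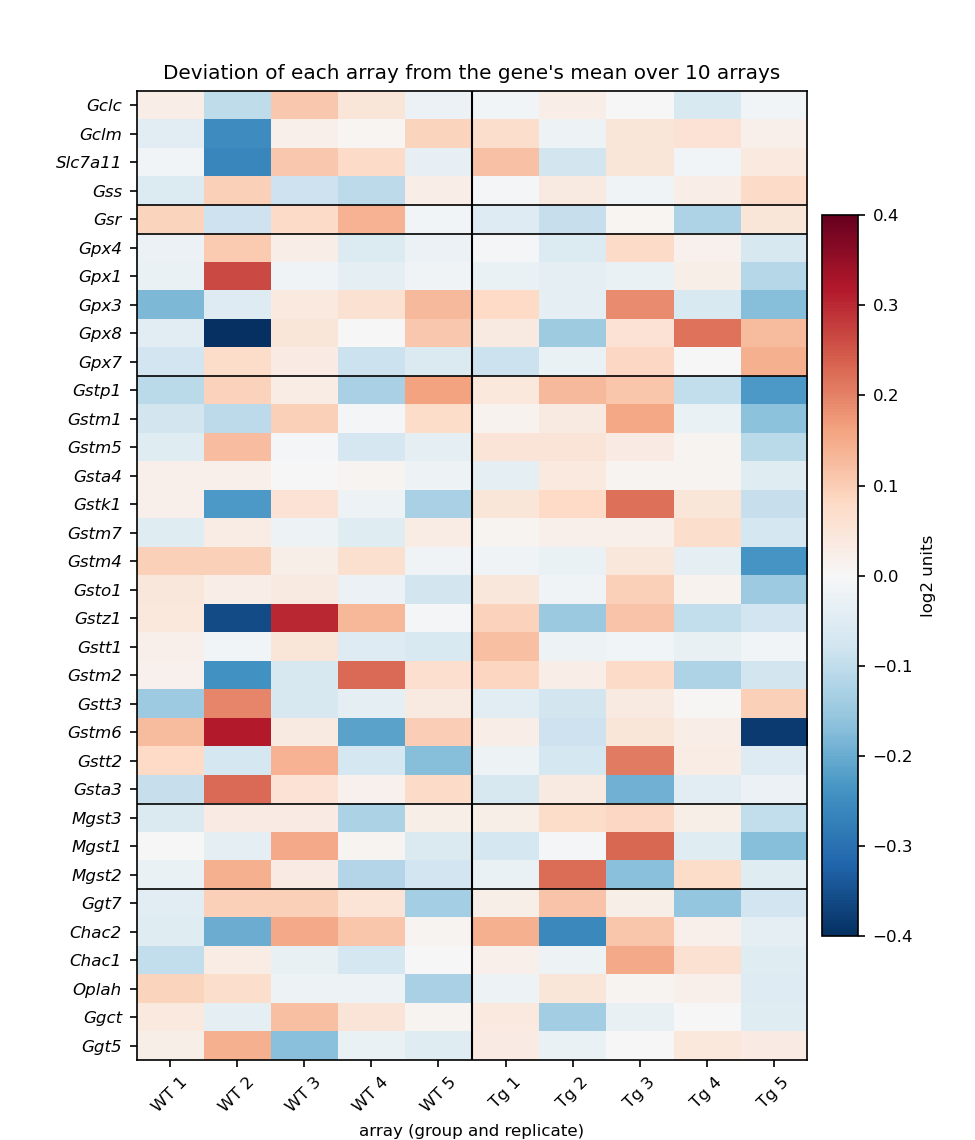
Deviation of each array (x axis) from the gene's mean over all 10 arrays, in log2 units (colour, limited to -0.4 and 0.4), for the 34 genes (y axis), with classes separated by horizontal lines and genotypes by the vertical line. WT replicate 2 deviates strongly in both directions, as for Gpx1 at 10.31 and Gpx8 at 8.63, and Tg replicate 5 is the lowest Tg array for 11 of 18 transferases.

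The breakdown genes had a median difference of -0.0029, with 3 Tg means higher and 3 lower among 6 measured. Ggt7, of the γ-glutamyl transferase family that opens glutathione outside the cell, was the brightest and read 10.01, 10.15, 10.15, 10.11 and 9.92 in WT and 10.08, 10.17, 10.08, 9.90 and 9.98 in Tg. The values were interleaved, with a difference of -0.028 (-0.17 to 0.11). Ggt5, a family member that acts on leukotriene C4, was at 7.46 ± 0.11 and 7.50 ± 0.030 (SD, 5 mice each), a difference of 0.032 that was 0.072 without WT replicate 2.

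Ggct, the γ-glutamyl cyclotransferase that makes 5-oxoproline, had the lowest p of the class and carries TGACNNNGC. It read 8.42, 8.34, 8.50, 8.43 and 8.39 in WT and 8.42, 8.24, 8.35, 8.38 and 8.33 in Tg. In Tg 2 of 5 values lay below the lowest WT value, and the difference of -0.074 (-0.18 to 0.028) did not pass (limma adjusted p = 1.0, two-sided exact permutation p = 0.0873). Oplah, which turns 5-oxoproline back to glutamate, was at 8.51 ± 0.087 and 8.51 ± 0.038 (SD, 5 mice each), a difference of 0.0033 (-0.10 to 0.11).

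Chac1 and Chac2 cleave glutathione inside the cell; Chac1 is induced in the ATF4 stress response and Chac2 works at a slower, steady rate. Chac1, the other carrier of TGATGCAA, was at 8.79 ± 0.056 in WT and 8.85 ± 0.076 in Tg (SD, 5 mice each), a difference of 0.064 (-0.041 to 0.17, limma adjusted p = 1.0) that stayed between 0.035 and 0.084 with single arrays left out. Chac2 read 8.85, 8.70, 9.05, 9.01 and 8.91 in WT and 9.04, 8.64, 9.01, 8.92 and 8.86 in Tg. The replicate numbered 2 was lowest in both genotypes, and the difference of -0.0091 (-0.20 to 0.18) was -0.061 without WT replicate 2 and 0.055 without Tg replicate 2. Both of those arrays carried the raised pituitary markers. The astrocyte list was also the lowest of its genotype there, at 10.73 in WT replicate 2 and 10.81 in Tg replicate 2. The part of either list in the Chac2 values was not tested.

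The differences of these genes also moved with single arrays. Leaving out 1 array moved the difference by more than 0.05 log2 units for 11 of the 34 genes, and the array concerned was WT replicate 2 for 6 of them, Slc7a11, Gclm, Gpx1, Gpx8, Gstm2 and Gstz1. For Gstm6 and Gstp1 it was Tg replicate 5, for Mgst1 Tg replicate 3, and for Mgst2 and Chac2 Tg replicate 2. WT replicate 2 was the highest or lowest WT array for 23 of the 34 genes, where it was so for 73.0% of all probe sets. The sign of the difference turned in at least 1 of the 10 fits for 19 genes and kept for 15: Gclm, Gss, Gsr, Gpx1, Gpx7, Gpx8, Gsta3, Gsta4, Gstm4, Gstm6, Gstm7, Gstk1, Mgst3, Ggct and Chac1. Differences close to 0 turn sign easily. Shifts over 0.05 and turns of sign were not counted over all probe sets. These counts therefore do not set the glutathione genes apart from others.

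**Figure D4:**
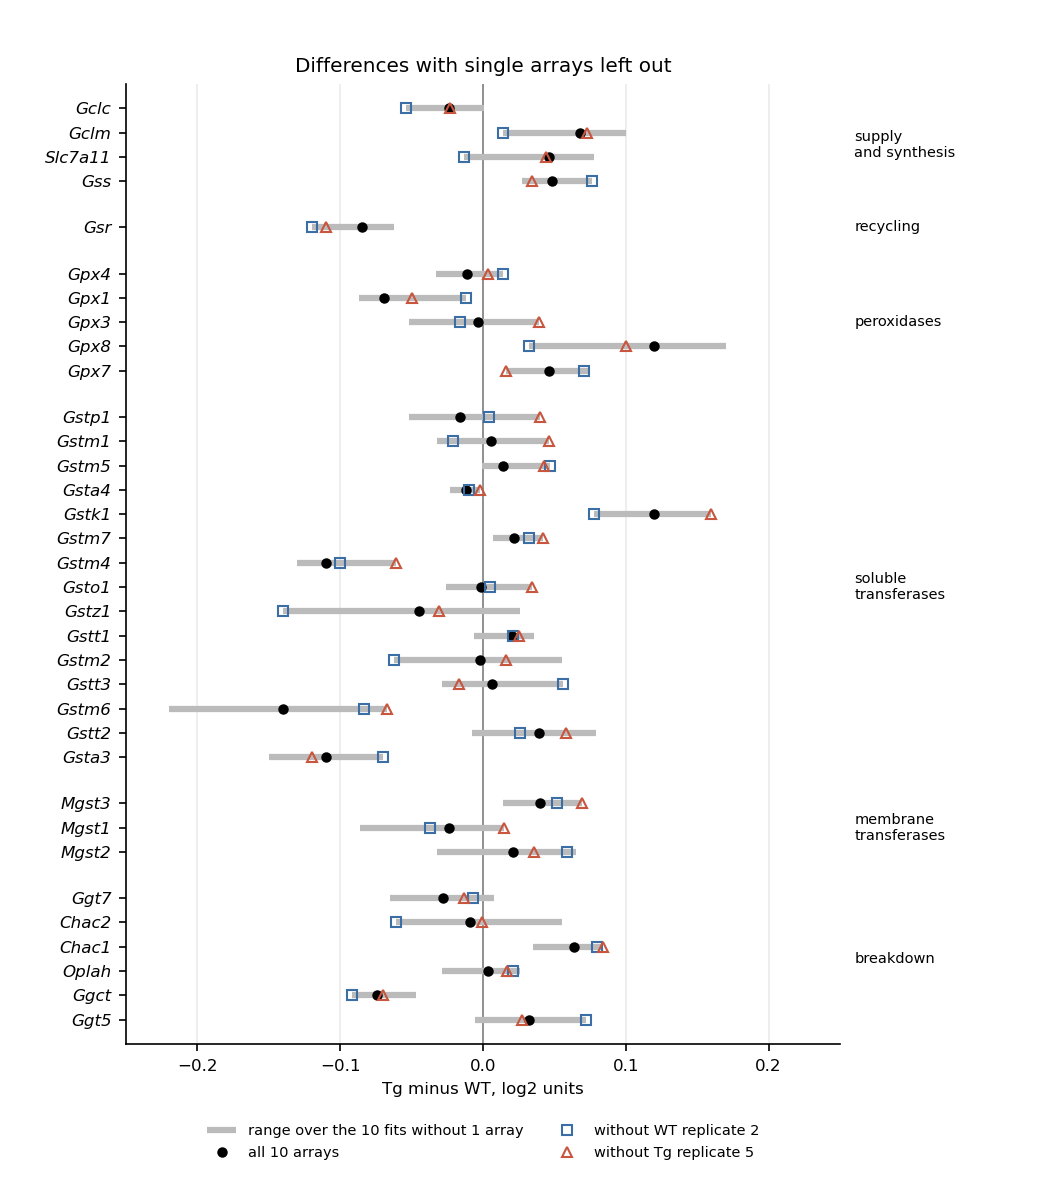
Tg minus WT difference in log2 units (x axis) for the 34 genes (y axis) with all 10 arrays (black points), without WT replicate 2 (blue squares) and without Tg replicate 5 (red triangles); grey bars span the 10 fits that each leave out 1 array. Gstz1 moves from -0.045 to -0.14 and Gpx8 from 0.12 to 0.032 without WT replicate 2.

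Of 51 further genes listed, among them glutaredoxins, thioredoxin reductases, NADPH sources, precursor transporters and glutathione exporters, 46 were measured. In limma 1 was higher past the threshold, Glo1 itself, and 0 were lower, against 0.00691% and 0.0276% of all probe sets. The other 45 differed by -0.11 to 0.095, with a median of -0.0043 and 0 of 45 at an unadjusted p under 0.05. Glo1 read 10.55, 10.27, 10.75, 10.55 and 10.73 in WT and 12.17, 11.88, 12.23, 12.06 and 12.06 in Tg, with every Tg value above every WT value. Hagh, which returns glutathione at the end of the glyoxalase path, read 10.63, 10.68, 10.71, 10.59 and 10.59 in WT and 10.65, 10.64, 10.65, 10.70 and 10.62 in Tg. Its difference was 0.015 (-0.073 to 0.10), with Tg and WT values interleaved and the interval far below the difference of Glo1. Txnrd2, the mitochondrial thioredoxin reductase, had the lowest p after Glo1: 7.81, 7.72, 7.69, 7.72 and 7.64 in WT and 7.66, 7.74, 7.54, 7.58 and 7.50 in Tg, a difference of -0.11 (-0.23 to 0.0046, limma unadjusted p = 0.0582, adjusted p = 1.0). In Tg 3 of the 5 values lay below the lowest WT value. Gstt4, the θ-class neighbour that was not listed, followed by p: it read 6.17, 6.31, 6.14, 6.10 and 6.28 in WT and 6.36, 6.22, 6.40, 6.23 and 6.28 in Tg, a difference of 0.095 (-0.028 to 0.22). Nfe2l2, which encodes Nrf2, was at 9.30 ± 0.25 in WT and 9.35 ± 0.10 in Tg (SD, 5 mice each), with its lowest value, 8.92, in WT replicate 2.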

How the data were processed

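For all 10 arrays the submitters' processing notes name the Affymetrix software Expression Console, version 1.1.2, and the sources used here give no settings. What the authors deposited was read as log2 signal per probe set, since values span 3.28 to 14.7, and no normalization was added. Dim probe sets may understate a true fold. Of 35556 rows, 6612 platform controls were left out and 28944 probe sets tested, of which 21789 had 1 gene, 1621 several and 5534 were unnamed here. Symbols were updated through Entrez identifiers against GRCm38.p6 for 21698 of the 21789; no genome build is named for the arrays, so gene coordinates are given for promoter sequences only.

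Tg and WT were compared with limma 3.58.1 in R 4.3.3 (lmFit and eBayes, no covariates), with Benjamini-Hochberg adjustment over all 28944 probe sets. The step was also run on simulated data with planted shifts larger than any difference of the glutathione genes. That run does not bear on differences of their size. Single genes were also tested by exact permutation. Class medians have no test. Differences are Tg minus WT with 95% intervals. The number of arrays limits the precision.

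The members, classes and lists were chosen with earlier results of these data known. All 10 values are printed for the brightest and lowest-p gene of each class and for genes with an outlying array or moved by over 0.05 log2 units when 1 array is left out; every other member is given by its means. The array values of Gsta3, Gstk1 and Gstm3, and Nfe2l2, were added after they were seen. The promoter motifs were also chosen afterwards. Alternatives covered normalization, dim-probe filters, variance models, array weights, the replicate block, the serial number, probe sets per gene and leaving out each array; leaving out WT and Tg replicate 2 together was added after seeing the data.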

Additional observations from a re-analysis of the deposited data

Results flagged for a closer look

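In groups of 5 arrays, 5 values of 68 gene and genotype groups stood apart by Dixon's gap ratio (above 0.71); chance gives about 1 in 20. That is 7.35% of the groups, against 8.42% over all probe sets, so outlying values were not more frequent among the glutathione genes. WT replicate 2 was high for Gpx1, at 10.31 log2 units, and low for Gpx8, at 8.63. Tg replicate 5 was low for Gstm4, at 8.93, and for Gstm5, at 11.02. Tg replicate 1 was high for Gstt1, at 8.81. Over all probe sets WT replicate 2 stood apart for 8.77%, Tg replicate 5 for 1.35% and Tg replicate 1 for 0.684%.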

How the results depend on the processing

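Under all 22 alternatives 0 of the measured glutathione genes passed the threshold (the filters on dim probe sets left 15 and 29 of the 34), and 7 to 11 probe sets did, against 10. The lowest adjusted p of any glutathione gene was 0.434, for Gsr without WT replicate 2. The median difference of the glutathione genes ran from -0.019 without Tg replicate 3 to 0.021 without Tg replicate 5, so its sign is not set. Quantile normalization turned the sign of 8 of the 34 differences, cyclic loess that of 6, and leaving out WT replicate 3 that of 9. Unadjusted p fell under 0.05 in 9 alternatives, for Gsr, Gsta3, Gstk1, Gstm4 or Gstm6. With the replicate number as a block 11 probe sets and 0 glutathione genes passed; same-numbered arrays correlated at -0.472 to 0.453 in their deviations over 5 pairs, and 4 of 10 arrays correlated best with their own number, so the numbers were not taken as pairs. Detection calls were not used here, so no limit from background signal is given.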
